A study of Homo sapiens with 6 samples.

Results

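CTXR is a DU145 subline selected for resistance to cabazitaxel from DTXR, which had itself been selected for resistance to docetaxel. The comparison of CTXR with DTXR asks which messenger RNAs differ between a prostate cancer line with docetaxel resistance and its derivative after the cabazitaxel selection. DU145 is a human prostate carcinoma line that grows without androgen, and its parental library separates differences that are new in CTXR from returns to the level before any selection. DTXR was kept in 5 nM docetaxel and CTXR in 5 nM cabazitaxel, and none of the lines received a treatment just before RNA was taken. Whether CTXR was also kept in docetaxel is not stated in the sources used here, nor is the number of clones behind each subline. A second lineage of the same design, C4-2B with its sublines TaxR (5 nM docetaxel) and CabR (5 nM cabazitaxel, from TaxR), served as a separate comparison. Each of the 6 lines has 1 library, so differences between lines could not be checked against replicates and are given without p-values.

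Docetaxel and cabazitaxel are taxanes, which bind beta-tubulin inside the microtubule, slow its disassembly and stall cells in mitosis. The best known route to taxane resistance is export of the drug by P-glycoprotein, the ATP-driven pump encoded by ABCB1. Cabazitaxel was developed as a taxane that P-glycoprotein exports poorly, and it is given to men whose prostate cancer has progressed after docetaxel. Other routes described for taxanes are changes in tubulin isotypes, in microtubule-binding proteins, in drug uptake, in apoptosis regulators and in epithelial or mesenchymal state.

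Of 60658 gene identifiers listed in each library, 15101 reached 1 FPKM (sequenced fragments per length of transcript and per sequenced total) in DTXR or CTXR and are called measured. Of these 12424 are protein-coding. The call was by size: a gene was higher or lower if CTXR and DTXR differed in log2(FPKM + 1) by 1 or more. The added 1 shrinks the ratios of genes with low values. By this rule 1271 genes were higher in CTXR (8.42% of the measured genes) and 915 were lower (6.06%), 2186 in all (14.5%). Among protein-coding genes 893 (7.19%) were higher and 640 (5.15%) lower. The median log2 ratio over all measured genes was −0.01, with quartiles of −0.40 and 0.43. The difference reached a log2 ratio of 3 in 49 genes that were higher and 36 that were lower. The rule cuts through a dense part of the distribution: 245 genes lay within 0.1 above the limit on the higher side and 241 within 0.1 under it, and on the lower side 203 and 246. For a gene, values are given below in the order DU145, DTXR and CTXR, as FPKM, followed by the log2 ratio of CTXR over DTXR.

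The 3 libraries of the DU145 lineage had total FPKM between 803230 and 818430 and 13860 to 14270 genes at 1 FPKM or more, and their read depth is unknown. Mitochondrially encoded genes took 40.7% (DU145), 40.2% (DTXR) and 35.3% (CTXR) of the total FPKM. Taken over measured genes, which share their libraries and are not replicates, Pearson's r of log2(FPKM + 1) was 0.934 between DU145 and DTXR, 0.920 between DU145 and CTXR and 0.919 between DTXR and CTXR. The label of the lineage was checked with marker genes. The luminal marker KLK3 of C4-2B was at or under 0.301 FPKM in the DU145 lineage, while S100A6, UCHL1 and CD44, which mark DU145, were at 1217, 740.2 and 50.1 FPKM in CTXR. Of 11 leukocyte markers PTPRC, CD3D, CD3E, MS4A1 and NKG7 were listed at 0 in all 3 libraries of the lineage, and CD79A, LYZ, CD14, CSF1R and ITGAM were at or under 0.519 FPKM in each. The remaining one, CD68, was at 9.07, 82.4 and 25.8 FPKM in DU145, DTXR and CTXR. Exactly 0 was listed for 184 measured genes in DTXR and 108 in CTXR. An exact 0 can be a failed estimate, so no ratio is printed for a gene at 0. Such a gene is at 1 FPKM or more in the other subline, so the rule calls it by construction. All 184 are thus among the 1271 higher genes and all 108 among the 915 lower ones. They also stay in the counts by pattern.

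The parental library divided the 2186 called genes into patterns. A difference was called new when DTXR lay within a log2 ratio of 1 of DU145 and CTXR lay beyond it, and this held for 790 genes (36.14% of the called genes), of which 529 were higher and 261 lower in CTXR. A difference was called a reversion when DTXR was past the rule against DU145 and CTXR was back within it, and this held for 567 genes (25.94%), 258 higher and 309 lower in CTXR. In 60 genes CTXR continued in the direction DTXR had already taken, 49 upward and 11 downward. Another 53 genes returned in part, 37 crossed from one side of the parental level to the other, and in 679 (31.06%) neither subline was past the rule against DU145 although the sublines were past it against each other. The median FPKM of the 529 new higher genes was 1.04, 0.781 and 5.90 in the 3 libraries of the lineage, in the order DU145, DTXR, CTXR. Among the 309 lower reversions it was 0.988, 7.30 and 1.06. The DTXR library enters the ratio to DU145 and the ratio to CTXR, so a value particular to that 1 library gives the pattern of a reversion, and the 2 cannot be told apart.

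Seen from the docetaxel step, 936 genes were higher in DTXR than in DU145 (6.25% of the 14977 genes measured for that comparison), and in CTXR 557 of them (59.51%) were within a log2 ratio of 1 of DU145 again. Lower in DTXR than in DU145 were 890 of those 14977 genes (5.94%), and of these 502 (56.4%) were within that distance in CTXR. Still on the docetaxel side of the parental level were 366 of the raised genes (39.1%) and 364 of the lowered ones (40.9%). These shares are over genes at 1 FPKM or more in DU145 or DTXR, a filter that does not use CTXR. A gene can come within that distance without a called difference between the sublines. Past the rule between CTXR and DTXR, opposite to the docetaxel step, were 351 of the 936 raised genes. Of the 890 lowered ones 306 were. The genes were chosen by their DTXR value, so a value particular to that library counts here as a return. In all, CTXR differed from DU145 in 1299 genes higher (8.50% of 15281) and 953 lower (6.24%).

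**Figure D1:**
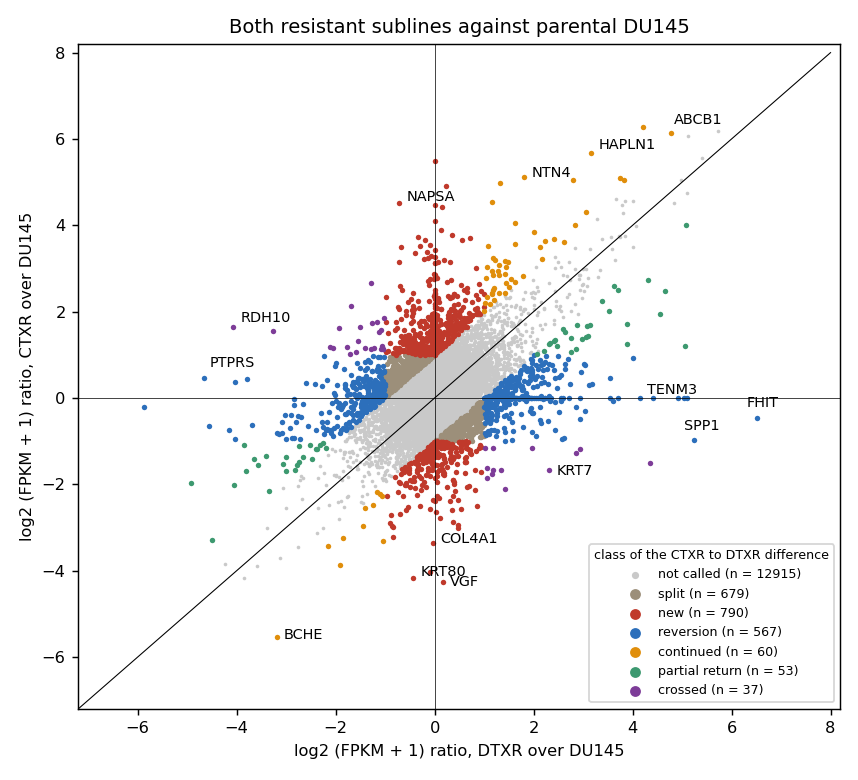
The log2 (FPKM + 1) ratio of CTXR over DU145 is plotted against that of DTXR over DU145 for the 15101 measured genes, coloured by pattern, with the diagonal where CTXR and DTXR are equal. Reversions lie along the horizontal axis, among them FHIT, SPP1 and TENM3 to the right and PTPRS to the left, new differences lie along the vertical axis, and ABCB1 lies near the diagonal at the upper right.

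ABCB1, on chromosome 7 at 87503633 to 87713323 of GRCh38, kept the level that it had reached in DTXR. Parental cells had 0.304 FPKM, against 68.0 in DTXR and 94.2 in CTXR. The log2 ratio of 0.46 between CTXR and DTXR is under the size rule. Its measured chromosomal neighbours, as a group, shared this pattern. Of 16 measured neighbours 1 was higher in CTXR (6.25%, against 8.42% of all measured genes) and none lower. Their median ratio was −0.01 between the sublines, with a sign that changed under other scalings. The same genes had a median of 2.21 in DTXR over DU145. Of 20 listed neighbours, those under 1 FPKM in both sublines are outside these figures. Among nearby genes that were not measured, ABCB4 was listed at 0, 0.0393 and 0.214 FPKM. CFAP69 was at 3.85, 0.415 and 0.445, lower in DTXR than in DU145. SRI, which encodes sorcin, was at 40.8, 492.3 and 551.0 FPKM. DMTF1, a transcription factor gene, was at 57.3, 233.2 and 241.2. The neighbour called higher was the noncoding TP53TG1, at 2.98, 20.3 and 50.1 FPKM (1.26). Most of the difference from DU145 was thus already present in DTXR.

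The other ABC transporters gave 3 higher (11.1%) and 1 lower member (3.70%) of 27 measured. Over all measured genes 8.42% were higher and 6.06% lower. The median of the list was −0.00094, a sign that also changed under other scalings. ABCA7, a phospholipid transporter, was at 12.1, 8.85 and 53.5 FPKM (2.47) and had the largest ratio of the family. ABCC2, the organic anion pump also known as MRP2, was at 2.66, 7.61 and 1.58 (−1.74), a return to the parental level. The lysosomal peptide transporter ABCB9 was at 4.34, 2.25 and 6.42 (1.19) and ABCD4, which takes part in vitamin B12 handling, at 19.8, 16.7 and 39.2 (1.19). Among 12 measured uptake transporters of the organic anion, organic cation and nucleoside families, 2 were higher (16.7%) and none lower. SLCO4A1, which carries organic anions and thyroid hormone, was at 10.2, 8.81 and 139.9 FPKM (3.84), so it was near the parental level in DTXR and far above it in CTXR. SLCO1B3, a hepatic uptake carrier with taxanes among its substrates, had been raised in DTXR and was not called between the sublines, at 0.812, 13.4 and 10.3 FPKM (−0.35).

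The tubulins that carry most of the tubulin messenger RNA did not pass the rule. TUBA1B was at 500.1, 631.0 and 527.4 FPKM (−0.26), TUBB at 448.9, 453.0 and 326.8 (−0.47) and TUBB4B at 205.3, 165.8 and 146.4 (−0.18). TUBB3, the class III beta-tubulin whose protein is often studied in taxane resistance, was at 41.1, 51.8 and 43.6 (−0.24). The 4 called members of 17 measured (23.5%, against 8.42% of all measured genes) were all higher and all had low values. They were TUBB4A at 7.08, 2.83 and 10.8 (1.62), TUBB8 at 0.848, 0.390 and 2.68 (1.41), TUBG2 and TUBD1. TUBG2 passed the rule only narrowly, at a ratio of 1.09, and no longer did so after scaling to the total without mitochondrial genes (0.99) or after subtraction of GC and length medians (0.80). TUBD1, the delta-tubulin of centrioles, was at 8.26, 5.70 and 17.5 (1.46). Tubulin genes are near-copies of each other, and the division of their reads was made by the authors' software.

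Microtubule-binding proteins gave 3 higher (7.5%) and 5 lower (12.5%) of 40 measured, against 8.42% and 6.06% of all measured genes. Their median of −0.05 turned positive after subtraction of GC and length medians. MAP2, a stabiliser of neuronal microtubules, was at 13.3, 9.83 and 2.36 FPKM (−1.69), a difference that is new in CTXR. CLIP2, a plus-end protein, was at 6.01, 20.6 and 5.46 (−1.74) and STMN3, of the stathmin family of tubulin-binding proteins, at 1.28, 7.93 and 2.33 (−1.42), so both were raised in DTXR and near the parental level in CTXR. MAPT, the gene of tau, which binds along microtubules, was at 7.78, 5.48 and 13.3 (1.14). VASH2, a tubulin carboxypeptidase that removes the terminal tyrosine of alpha-tubulin, was at 1.01, 0.713 and 3.79 (1.48). None of 35 measured kinesins and none of 51 measured mitosis and spindle checkpoint genes passed the rule, against 14.5% of all measured genes. The mitotic genes lay slightly low, with a median of −0.15, 35 of 51 under 0 and 16 above it. Their ratios ran from −0.95 to 0.87, and the genes given next are from the low side. MKI67, the proliferation antigen, was at 40.8, 38.6 and 19.5 FPKM (−0.95), and BUB1B, a checkpoint kinase, at 35.4, 33.3 and 18.7 (−0.80).

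Several of the largest new gains in CTXR were in genes with low values in DU145 and DTXR. NAPSA, an aspartic protease of lung and kidney on chromosome 19 at 50358477 to 50365830, was at 1.28, 0.391 and 51.1 FPKM (5.23). SUCNR1, the cell surface receptor for succinate, was at 0.0177, 0.186 and 29.7 (4.69), and RASD1, a Ras-related protein induced by glucocorticoids, at 0.141, 0.257 and 23.5 (4.28). These 3 were under 2 FPKM in both DU145 and DTXR and above 20 in CTXR. GPR183, a receptor for oxysterols, was listed at 0.258, 0 and 15.8. KLB, the beta-Klotho co-receptor for FGF19 and FGF21, was at 1.66, 0.613 and 22.8 (3.88). APC2, a homologue of the WNT regulator APC, was at 1.15, 0.334 and 23.4 (4.19), SPINK2, a serine protease inhibitor, at 5.15, 4.01 and 69.2 (3.81) and SCEL, a protein of the cornified envelope, at 0.0159, 0.106 and 14.1 (3.77). LGALS1, the abundant galectin-1, was at 233.4, 211.7 and 864.4 FPKM (2.02), the same pattern at a high level.

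The largest new losses included a neuropeptide, a keratin and basement membrane collagen. VGF, a neurosecretory protein gene on chromosome 7 at 101162509 to 101165593, was at 34.7, 38.9 and 0.853 FPKM (−4.43). KRT80, an epithelial keratin, was at 63.6, 46.9 and 2.56 (−3.75) and the transcription factor gene NFIB at 10.1, 14.4 and 0.458 (−3.40). COL4A1 and COL4A2, which encode the chains of the main type IV collagen and lie head to head on chromosome 13 (110148963 to 110307233 and 110305812 to 110513209), were low together. COL4A1 was at 16.4, 16 and 0.689 FPKM (−3.33) and COL4A2 at 19.2, 35.7 and 2.55 (−3.37). The pair overlap at their starts, and whether strand was used in counting is not stated. Their relatives COL4A3 and COL4A4, an adjacent pair on chromosome 2, had already been lower in DTXR and were lower again in CTXR, at 5.29, 1.64 and 0.125 (−1.23) and at 7.09, 1.97 and 0.0315 (−1.53). All 4 of these type IV collagen genes were thus lowest in CTXR.

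Among the reversions, the extremes were genes that DTXR had raised to very high levels. FHIT, a diadenosine triphosphate hydrolase gene that spans a common fragile site on chromosome 3 (59749310 to 61251459), was at 2.82, 348 and 1.79 FPKM, a log2 ratio of −6.97. SPP1, which encodes the secreted matrix protein osteopontin (chromosome 4, 87975650 to 87983426), was at 2.25, 122.0 and 0.644 (−6.23). For each of them CTXR was within a log2 ratio of 1 of DU145, so DTXR alone stood apart in the lineage. TENM3, a teneurin adhesion receptor, was at 0.0343, 17.4 and 0.0310 (−4.16) and HMGA2, an architectural chromatin protein, at 1.41, 13.8 and 0.259 (−3.56). SEMA3A, a secreted guidance cue, was at 1.29, 16.6 and 0.630 (−3.43). LIPI, a phospholipase gene, was listed at 0.0477, 11.7 and 0. In the opposite direction PTPRS, a receptor tyrosine phosphatase gene on chromosome 19 (5158495 to 5340803), was at 30.8, 0.261 and 42.6 (5.11). MISP, an actin-bundling protein that helps to orient the spindle, was at 16.2, 0.0562 and 21.3 (4.40), MYEOV at 39.7, 1.93 and 54.1 (4.23) and SEMA6B, a transmembrane semaphorin, at 16.5, 0.348 and 10.4 (3.08). These 4 were present in DU145 and CTXR and low in DTXR.

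Crossing genes changed side of the parental level. RDH10, which oxidises retinol to retinaldehyde on the way to retinoic acid, had the largest ratio of all protein-coding genes that were higher. Its values were 195, 10.7 and 616 FPKM (5.72). KRT7, a keratin of simple epithelia, ran the opposite course at 98.3, 490.4 and 30.1 (−3.98), and MBP, the myelin basic protein locus, was at 4.62, 40.0 and 1.31 (−4.15). CD24, a surface glycoprotein, was at 3.60, 0.426 and 19 (3.81). Continued genes moved on in the direction of the docetaxel step. ELF3, an epithelial ETS transcription factor, was at 0.0303, 1.59 and 31.5 (3.65) and CPM, carboxypeptidase M, at 6.06, 14.8 and 163.5 (3.38). NTN4, a netrin of basement membranes, was at 0.906, 5.64 and 65.5 (3.32), and LGR4, a receptor for R-spondins, at 3.27, 12.1 and 69.4 (2.42). BCHE, butyrylcholinesterase, was at 64.4, 6.16 and 0.407 (−2.35) and IER3, an early response gene, at 275, 61.3 and 24.6 (−1.28).

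**Figure D2:**
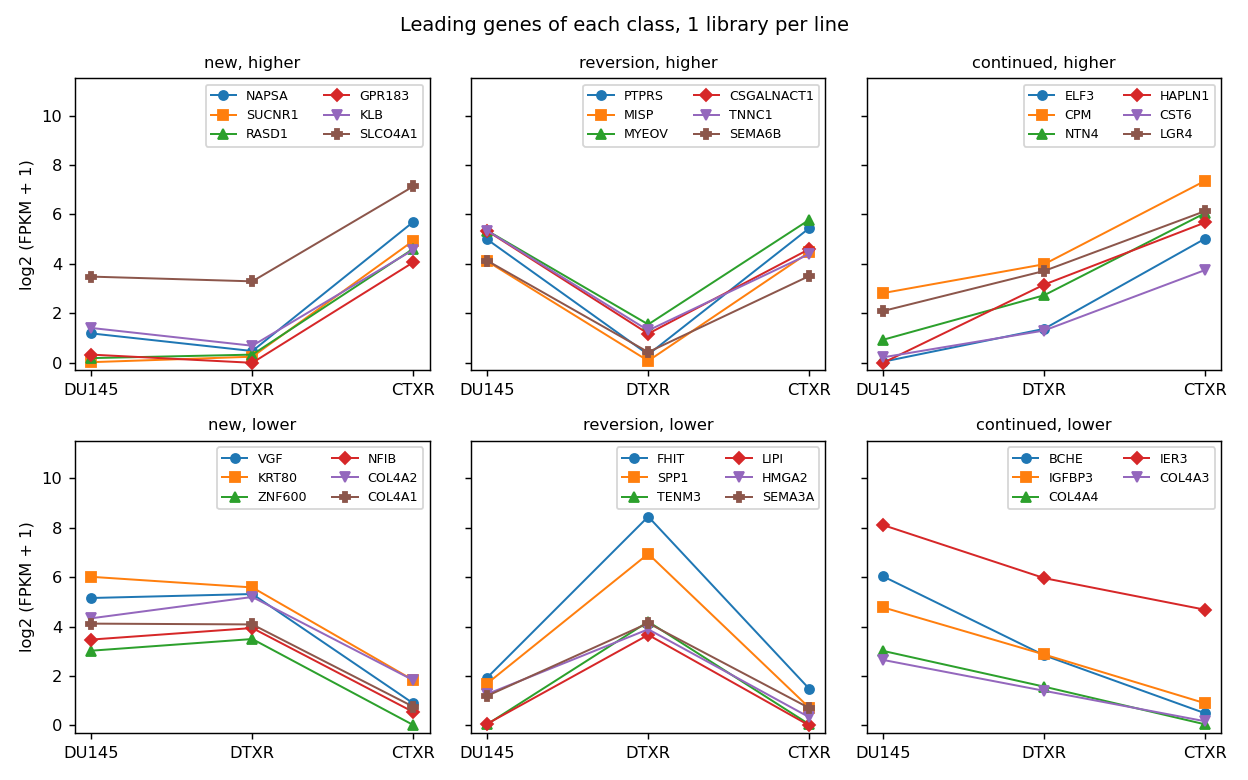
The log2 (FPKM + 1) level of the leading protein-coding genes of 3 patterns is shown in the DU145, DTXR and CTXR libraries, 1 point per library, with higher genes in the upper row and lower genes in the lower row. New genes stay flat between DU145 and DTXR, reversions leave and regain the parental level (FHIT from 2.82 to 348 and back to 1.79 FPKM), and continued genes move the same way at each step.

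On a stricter view of presence, 94 genes were under 1 FPKM in DTXR and at 5 or more in CTXR, 62 of them protein-coding, and 68 genes went the other way, 49 of them protein-coding. Among the 94, 34 were also under 1 FPKM in DU145, and 17 were at 5 or more there. Among the 68 that were lost, 23 were under 1 FPKM in DU145 and 18 at 5 or more. The gained coding genes included BMP7, a bone morphogenetic protein, at 7.79, 0.648 and 10.1 FPKM (2.75), and CLDN4, a tight junction claudin, at 2.67, 0.857 and 17.7 (3.33). The lost ones included FOXP1, a forkhead transcription factor, at 2.52, 6.83 and 0.0385, and SYK, a tyrosine kinase of immune and epithelial cells, which was listed at 0, 5.17 and 0.588.

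Gene lists of pathways and cell functions were read against the shares of all measured genes, 8.42% higher and 6.06% lower with a median of −0.01. The interferon-stimulated list had 9 higher (20.5% of its measured members) and 3 lower (6.82%) of 44 measured, and a median of 0.15 that turned negative among members at 5 FPKM or more in either subline. Type I interferon acts through JAK1, TYK2 and a complex that includes STAT2 and IRF9, and this complex binds the interferon-stimulated response element (ISRE) in the promoters of these genes. That element was searched as GAAA followed, after any 2 bases, by another GAAA, on either strand, in the RefSeq promoters of GRCh38.p14, from 250 bases before to 50 after the start, each 300 bases long. Promoters are shown for the leading higher gene, IFI6, for ISG15 and IFIT1, and for MX1, the list's lowest gene, 5′ to 3′ on the gene's strand with every match in capitals. On the reverse strand a match reads as 2 copies of TTTC, as in IFIT1, and 2 overlapping matches in ISG15 form 1 run of capitals.
IFI6 (chr1:27672143-27672442, minus strand): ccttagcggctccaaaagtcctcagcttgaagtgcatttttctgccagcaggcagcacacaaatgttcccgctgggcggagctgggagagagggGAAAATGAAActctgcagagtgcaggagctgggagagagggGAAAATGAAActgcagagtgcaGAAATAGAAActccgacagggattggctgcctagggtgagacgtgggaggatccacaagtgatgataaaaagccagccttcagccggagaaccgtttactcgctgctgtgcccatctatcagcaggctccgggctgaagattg
ISG15 (chr1:1013247-1013546, plus strand): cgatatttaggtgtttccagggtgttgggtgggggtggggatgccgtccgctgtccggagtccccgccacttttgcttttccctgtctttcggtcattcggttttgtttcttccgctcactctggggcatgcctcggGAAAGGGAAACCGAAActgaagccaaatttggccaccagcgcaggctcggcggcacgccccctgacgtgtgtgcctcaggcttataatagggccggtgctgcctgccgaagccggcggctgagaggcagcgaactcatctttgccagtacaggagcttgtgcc
IFIT1 (chr10:89392373-89392672, plus strand): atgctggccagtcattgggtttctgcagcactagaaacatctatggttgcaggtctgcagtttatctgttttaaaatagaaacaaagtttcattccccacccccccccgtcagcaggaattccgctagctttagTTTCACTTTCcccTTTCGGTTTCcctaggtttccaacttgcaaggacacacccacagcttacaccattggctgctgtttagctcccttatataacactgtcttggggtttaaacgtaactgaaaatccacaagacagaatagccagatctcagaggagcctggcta
MX1 (chr21:41420308-41420607, plus strand): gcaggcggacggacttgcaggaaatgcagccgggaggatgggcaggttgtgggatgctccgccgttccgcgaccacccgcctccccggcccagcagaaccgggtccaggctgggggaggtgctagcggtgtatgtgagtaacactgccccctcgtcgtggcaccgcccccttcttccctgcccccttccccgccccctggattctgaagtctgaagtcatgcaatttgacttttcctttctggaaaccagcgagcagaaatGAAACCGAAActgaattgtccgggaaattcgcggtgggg

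The IFI6 window holds 3 matches, those of ISG15 and IFIT1 hold 2 each, and that of MX1 holds 1, which begins at position +12 after the start. Matches were present in 3.57% of the 35116 promoters of the table and in 2.67% of the 10760 measured genes found in it. In the interferon-stimulated list 24 of 36 members with a promoter (66.7%) had a match. They were 7 of the 7 higher members, 1 of the 3 lower members and 16 of the 26 members that were not called (61.5%). Over all called genes the shares were 3.05% of the higher and 3.25% of the lower genes. A match is a description of the letters in the window and not a bound site.

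IFI6, a mitochondrial and endoplasmic reticulum protein induced by interferon, was at 6.43, 3.59 and 43.8 FPKM (3.29). OASL, an antiviral relative of the oligoadenylate synthetases, was at 0.285, 0.183 and 6.94 (2.75) and IFIT1, which binds foreign RNA ends, at 0.835, 0.357 and 5.31 (2.22). In these 3 genes DTXR was no higher than DU145 and CTXR stood alone. ISG15, the ubiquitin-like modifier, was at 7.35, 16.1 and 56.4 (1.74), and IFITM3, a membrane protein that blocks viral entry, at 1.15, 29.5 and 70.4 (1.23), so these were raised at each step. IFIT2, IFIT3, IFI27 and IFI44 were also called higher, each under 5 FPKM in CTXR. MX1, an antiviral dynamin-like GTPase, went the other way at 0.422, 9.30 and 0.231 (−3.07), and so did IFI16, a sensor of DNA, at 0.0489, 3.81 and 0.0365 (−2.21). TRIM25, a ubiquitin ligase of the RIG-I pathway, was at 29.4, 84.5 and 36.9 (−1.17). The 3 lower genes had all been raised in DTXR and were near the parental level in CTXR, so the list did not move as a block.

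Of the pathway's signalling genes 5 were higher (18.5%) and 1 lower (3.70%) of 27 measured, with a median of 0.22. The shares of all measured genes were 8.42% and 6.06%. STAT2 was at 20.7, 22.8 and 50.9 FPKM (1.13), and STING1, the adaptor for cyclic dinucleotides, at 0.775, 3.28 and 12.6 (1.67). IRF9 was at 2.99, 6.98 and 15 (1.01) and the kinase gene IKBKE at 1.51, 1.65 and 4.56 (1.07), and both were under the rule after scaling to the total without mitochondrial genes (0.91 and 0.99) and after subtraction of GC and length medians (0.79 and 0.83). SOCS1, a feedback inhibitor, was also called higher but not after that subtraction (0.81). JAK1, the kinase shared by interferon receptors, was lower at 19, 38.6 and 12.2 (−1.59). In MHC class I presentation 2 members were higher (9.52%) and 1 lower (4.76%) of 21 measured, near the shares of all measured genes. B2M, the light chain of class I molecules, was at 453.9, 646.8 and 1526 FPKM (1.24), and PSMB9, an immunoproteasome subunit, at 2.69, 11.7 and 25.3 (1.05, or 0.95 after scaling to the total without mitochondrial genes). Chemokines and interleukins gave 3 higher and 3 lower of 15 (20% each). CXCL8 was at 10.3, 1.15 and 5.69 (1.64) and CXCL2 at 37.3, 43.1 and 12.7 (−1.68), both neutrophil attractants.

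Growth factor receptors and their ligands changed in both directions, with 4 higher (12.1%) and 6 lower (18.2%) of 33 measured and a median of 0.24. The shares of all measured genes were 8.42% and 6.06%. EGFR was at 49.2, 75.4 and 18.1 FPKM (−2.00) and IGF1R, the IGF receptor, at 59.9, 33.1 and 6.72 (−2.14), both new losses. MET, the hepatocyte growth factor receptor, was at 9.34, 48.6 and 15.4 (−1.60), a reversion, and the growth factor FGF2 was at 13.4, 24.1 and 3.53 (−2.47). While these were lower, ligands of the EGF family were among the higher members. AREG, amphiregulin, was at 10.9, 31.4 and 96.5 (1.59), and EPGN, epigen, was listed at 0.587, 0 and 8.05. EREG, epiregulin, was at 8.32, 37.4 and 75, just under the rule (0.98). ERBB2 was at 30.8, 21.9 and 47.3 (1.08), under the rule after scaling to the total without mitochondrial genes and after subtraction of GC and length medians (0.98 in each).

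The IGF axis had 3 higher (21.4%) and 4 lower (28.6%) of 14 measured members, with a median of −0.24. The shares of all measured genes were 8.42% and 6.06%. IGF2, a ligand, was at 1.41, 0.918 and 10.5 FPKM (2.58), IGFBP2 at 27.9, 12.3 and 82.5 (2.65) and IGFBP4 at 12.5, 1.73 and 9.6 (1.96), the latter 2 being binding proteins. IGFBP3, the main carrier of IGF in blood, was at 26.4, 6.32 and 0.863 (−1.97). The RNA-binding proteins IGF2BP1 and IGF2BP2 were lower, at 6.77, 5.79 and 2.26 (−1.06) and at 30.4, 41.6 and 15.9 (−1.33). In the WNT pathway 7 of 33 were higher (21.2%) and 3 lower (9.09%), with a median of 0.22. SFRP1, a secreted antagonist, was at 1.13, 0.264 and 8.19 (2.86) and WNT7B, a ligand, at 0.587, 12.2 and 30.6 (1.26). LEF1, the nuclear partner of beta-catenin, was at 2.53, 5.72 and 0.619 (−2.05), and RNF43, a ligase that removes frizzled receptors, at 0.862, 4.53 and 0.966 (−1.49). TGF-beta and BMP genes gave 5 higher (12.5%) and 4 lower (10%) of 40. SMAD2 was at 100.3, 32.3 and 129.9 (1.98) and SMAD3 at 17, 55.6 and 23.2 (−1.22), so the 2 receptor-activated SMADs had moved oppositely in DTXR and both were near DU145 in CTXR. YAP and TEAD targets had 1 higher (3.45%) and 4 lower (13.8%) of 29 with a median of −0.37. The lower ones were led by IGFBP3 and by CCN2, a matricellular protein, at 26.7, 54.7 and 14.7 (−1.83).

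Epithelial junction genes split, with 8 higher (20.5%) and 6 lower (15.4%) of 39 measured, against 8.42% and 6.06% of all measured genes. CLDN3 was at 25.1, 19.95 and 108.9 FPKM (2.39) and JUP, plakoglobin, at 80.6, 8.58 and 54.6 (2.54). TJP3, a scaffold of tight junctions, was at 3.40, 0.233 and 5.97 (2.5). Its relative TJP1 was lower, at 37.1, 65.8 and 26.3 (−1.29), as was CLDN1, another claudin, at 31.8, 110.8 and 38.9 (−1.49). Of 8 measured keratins 3 were higher (37.5%) and 2 lower (25%). KRT19, of simple epithelia, was at 60.8, 13.9 and 137.7 (3.22), the reverse of KRT7, and KRT8 and KRT18 were not called (0.73 and 0.77). Among mesenchymal genes 1 of 34 was higher (2.94%) and 4 were lower (11.8%). S100A4, a calcium-binding protein of motile cells, was at 109, 2.61 and 26.8 (2.95), and SNAI2, a repressor of E-cadherin, at 0.0351, 2.39 and 0.0258 (−1.72).

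Matrix genes had 10 higher (23.3%) and 6 lower (13.95%) of 43 measured and a median of 0.26. The shares of all measured genes were 8.42% and 6.06%. LAMC3, a laminin chain, was at 11.1, 0.678 and 10.9 FPKM (2.83) and FBLN1, fibulin-1, at 49.8, 19 and 56.5 (1.52), both returns to the parental level. COL3A1, a fibrillar collagen, was at 1.31, 0.0296 and 6.85 (2.93), and THBS1, thrombospondin-1, at 13.3, 17.5 and 4.34 (−1.79). Of 9 fibroblast markers COL1A1 (2.33 in DTXR, 4.58 in CTXR), COL1A2 (1.24, 2.25) and COL3A1 were above 1 FPKM in CTXR, whereas FAP was listed at 0 and DCN, LUM, PDGFRA, PDGFRB and POSTN were under 0.4. Proteases and inhibitors had 6 higher (15.8%) and 4 lower (10.5%) of 38. PLAT, tissue plasminogen activator, was at 1.34, 0.737 and 9.20 (2.55), MMP1, interstitial collagenase, at 0.367, 36.7 and 95.6 (1.36) and CST6, an inhibitor of cysteine proteases, at 0.166, 1.47 and 12.5 (2.45). CTSD, the lysosomal protease cathepsin D, was at 169, 387 and 101 (−1.93).

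Of 30 measured genes of the amino acid response that ATF4 drives, 28 were under 0, with a median of −0.43. Called lower were 4 (13.3%) and none were higher, against 6.06% and 8.42% of all measured genes. TRIB3, a pseudokinase, was at 204, 167 and 45.4 FPKM (−1.86), and SLC7A5, a carrier of large neutral amino acids, at 204, 196 and 73.5 (−1.41). Targets of NRF2 and antioxidant genes gave 4 higher (7.55%) and 6 lower (11.3%) of 53. Of these 53, 26 were above 0 and 27 under it, with a median of −0.01 whose sign changed under other scalings. SLC7A11, the cystine carrier, was at 92.5, 114.9 and 38.4 (−1.56), HMOX1, heme oxygenase-1, at 157, 144 and 50.8 (−1.49) and FTH1, the ferritin heavy chain, at 2682, 2815 and 1230.2 (−1.19). These 3 were new losses, while GPX4, the peroxidase that reduces lipid peroxides, was a new gain at 194, 213 and 634 (1.57). Lysosome and autophagy genes had 4 lower (12.1%) and none higher of 33, with a median of −0.37. SQSTM1, the autophagy receptor p62, was at 555.0, 621 and 222 (−1.48), and NPC2, which hands on cholesterol in lysosomes, at 47.7, 206 and 77.0 (−1.41). CD68, the leukocyte marker given above, encodes a lysosomal membrane protein.

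DNA replication genes leaned low, with 42 of 52 under 0 and a median of −0.35. There was 1 call, a lower one (1.92%), against 8.42% higher and 6.06% lower of all measured genes. It was TIPIN, a fork protection factor, at 14.2, 19.1 and 8.28 FPKM (−1.12). Among G1 regulators CDK6 was at 4.67, 6.11 and 1.17 (−1.71) and CDK4 at 73.0, 123 and 57.1 (−1.09), and 3 inhibitors of such kinases were higher. CDKN2D was at 7.24, 4.14 and 21.4 (2.13), CDKN2C at 15.2, 15.4 and 37.9 (1.25) and CDKN1B at 15.9, 12.4 and 27.2 (1.07), the last of these under the rule after scaling to the total without mitochondrial genes (0.97). Nuclear genes of the respiratory chain leaned high, with 46 of 54 above 0 and a median of 0.24, but 1 (1.85%) passed the rule. Replication-dependent histones had 4 higher (16%) and 3 lower (12%) of 25 and a median of 0.57. H2BC5 was at 28.9, 2.95 and 17.6 (2.23) and H2BC4 at 50.9, 3.36 and 16.7 (2.02), values that lie between DTXR and the parent. Histone genes are near-copies and lack poly(A) tails, so their values in poly(A)-oriented libraries are uncertain. Heat shock genes had 5 higher (17.9%) and none lower of 28, with a median of −0.13. HSPB1, a small heat shock protein, was at 106, 64 and 446 (2.78).

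Retinoid and aldehyde dehydrogenase genes had 5 higher (19.2%) and 1 lower (3.85%) of 26 measured and a median of 0.31. The shares of all measured genes were 8.42% and 6.06%. Beside RDH10, ALDH3B1, which oxidises lipid aldehydes, was at 33.9, 12.7 and 63.0 FPKM (2.22), and ALDH1A2, which makes retinoic acid, at 1.51, 0.480 and 2.63 (1.29). DHRS3, which reduces retinaldehyde back to retinol, was at 1.36, 16.2 and 4.20 (−1.72). CYP26A1, which breaks down retinoic acid, was not called, at 0.413, 0.0999 and 1.12. Cholesterol genes had 1 higher (3.57%) and 2 lower (7.14%) of 28. HMGCS1, an early enzyme of the pathway, was at 30.1, 129.7 and 36.8 (−1.79), so it was raised in DTXR and near DU145 in CTXR. BCL2 family genes gave 2 higher and 2 lower of 20 (10% each), not far from the shares of all measured genes. BMF, a BH3-only protein tied to the cytoskeleton, was at 2.23, 0.792 and 5.09 (1.76) and BCL2L10, an apoptosis regulator, at 0.335, 0.839 and 3.28 (1.22). The lower members were HRK at 4.58, 3.96 and 1.005 (−1.31) and BCL2 at 1.47, 2.52 and 0.569 (−1.17). Death receptors, their ligands and caspases gave 4 higher (16%) and 1 lower (4%) of 25. Among the higher was CASP9, the initiator caspase of the mitochondrial route, at 5.51, 3.82 and 24.5 (2.41).

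Among transcription factors, immediate early and AP-1 genes had 8 higher (24.2%) and 5 lower (15.2%) of 33. JUND was at 129, 48.0 and 204 FPKM (2.06), FOS at 4.75, 3.25 and 14 (1.82) and NR4A1, an orphan nuclear receptor, at 38.9, 16.9 and 43.9 (1.33). FOSL1, also of the AP-1 family, was lower at 95.8, 162.4 and 47.5 (−1.75), so members of the same dimer family differed in direction. Of 29 lineage factors 9 were higher (31.0%) and 5 lower (17.2%). LMO3, a LIM-only cofactor, was at 0.168, 20.6 and 89.6 (2.07), SOX4 at 2.40, 6.59 and 24.9 (1.77) and TFAP2C, AP-2 gamma, at 12.2, 0.848 and 10.8 (2.67). PPARG, a regulator of lipid genes, was at 11.2, 54.7 and 20.1 (−1.40) and ETV1, an ETS factor, at 0.0209, 5.85 and 1.69 (−1.35). HOX genes had 2 higher (7.14%) and 5 lower (17.9%) of 28 with a median of −0.35. HOXC8 was at 3.77, 5.47 and 1.13 (−1.61) and HOXB7 at 12.1, 10.6 and 26.8 (1.26).

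**Figure D3:**
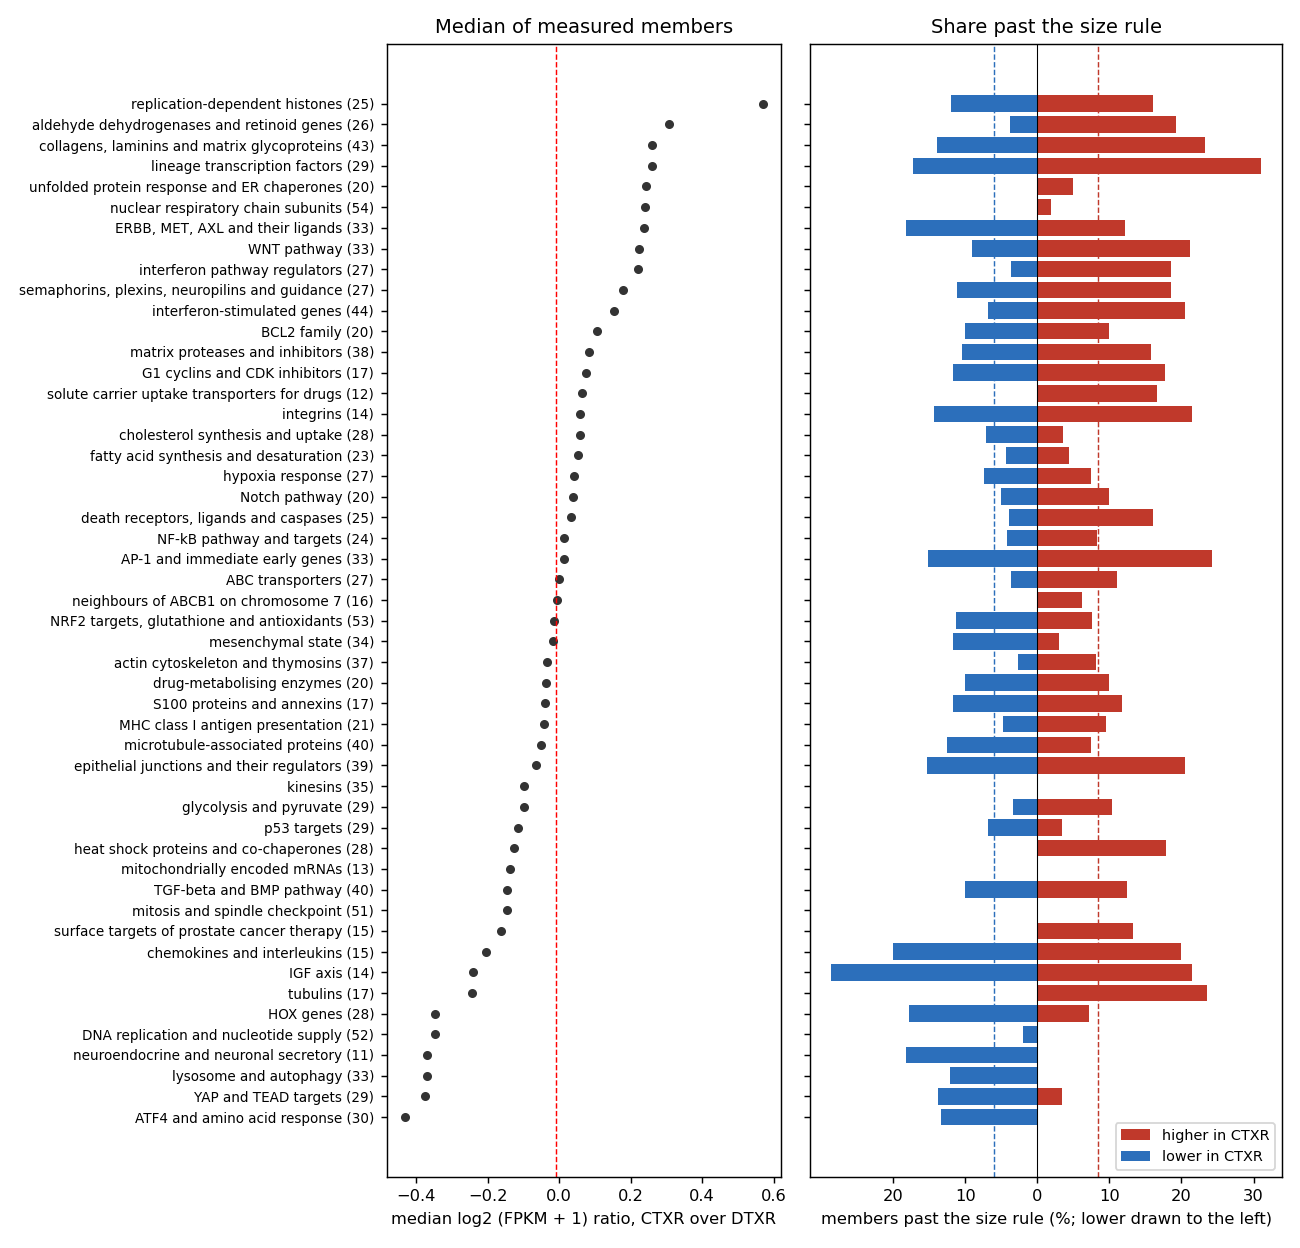
For each list with at least 10 measured members (number in parentheses), the left panel gives the median log2 (FPKM + 1) ratio of CTXR over DTXR and the right panel the share of measured members called higher or lower. Dashed lines mark all measured genes, with a median of −0.01, 8.42% higher and 6.06% lower, and the amino acid response list has the lowest median, −0.43, and no higher member.

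The called genes were also placed along the genome. In a window of 15 neighbouring measured protein-coding genes, a median ratio of 0.8 or more in size marked 22 stretches, 8 lower and 14 higher in CTXR. The lower stretches held 257 genes, 2.07% of the measured protein-coding genes, and 99 of the lower calls (15.5%). The higher stretches held 305 genes (2.46%) and 106 of the higher calls (11.9%). Windows were chosen by the ratio itself, so these shares describe the choice. The longest lower stretch covered most of the short arm of chromosome 5, from NKD2 at 1008829 to CARD6 at 40860175. Of its 64 genes 58 were under 0, with a median of −0.90 between the sublines, 0.77 in DTXR over DU145 and −0.07 in CTXR over DU145. The end of the long arm of chromosome 4, from SH3RF1 at 169094256 to FRG1 at 189963204, was alike, with medians of −0.95, 1.13 and 0.11 over 44 genes. In both stretches DTXR stood above DU145 and CTXR did not. BASP1, a membrane-bound signalling protein gene on chromosome 5, was at 83.4, 523 and 144 FPKM (−1.85).

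Other stretches were new in CTXR. On chromosome 19 a stretch with a cluster of zinc finger genes, which begins with ZNF649 at 51889224, had a median of −0.88 over 32 genes between the sublines and −0.83 in CTXR over DU145. Inside it the 8 consecutive measured genes from ZNF600 to ZNF677 were all lower, with a median of −2.13. ZNF600 itself, a KRAB-type zinc finger gene, was at 7.14, 10.3 and 0.0106 FPKM (−3.48), and ZNF320 at 6.12, 8.03 and 0.170. Zinc finger genes of such clusters resemble each other, and their reads can be divided unequally. On chromosome 7 from POLM at 44072247 to ZNF736 at 64354860, which includes EGFR and GRB10, the median over 38 genes was −0.85 between the sublines and −0.52 in CTXR over DU145. GRB10, an adaptor that restrains insulin and IGF signalling, was at 21, 27.5 and 2.02 (−3.23). Of the higher stretches, chromosome 4 from FAM114A1 at 38867677 to NSUN7 at 40809985, which holds KLB, had a median of 0.97 over 15 genes. Chromosome 20 as a whole had the highest chromosome median, 0.40, and chromosome 15 the lowest, −0.32. Among short runs, the 5 genes from TMEM51 to CASP9 on chromosome 1 were all higher with a median of 2.41, and the 5 from ABHD11 to TMEM270 on chromosome 7, with CLDN3 and CLDN4 among them, had a median of 1.79.

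**Figure D4:**
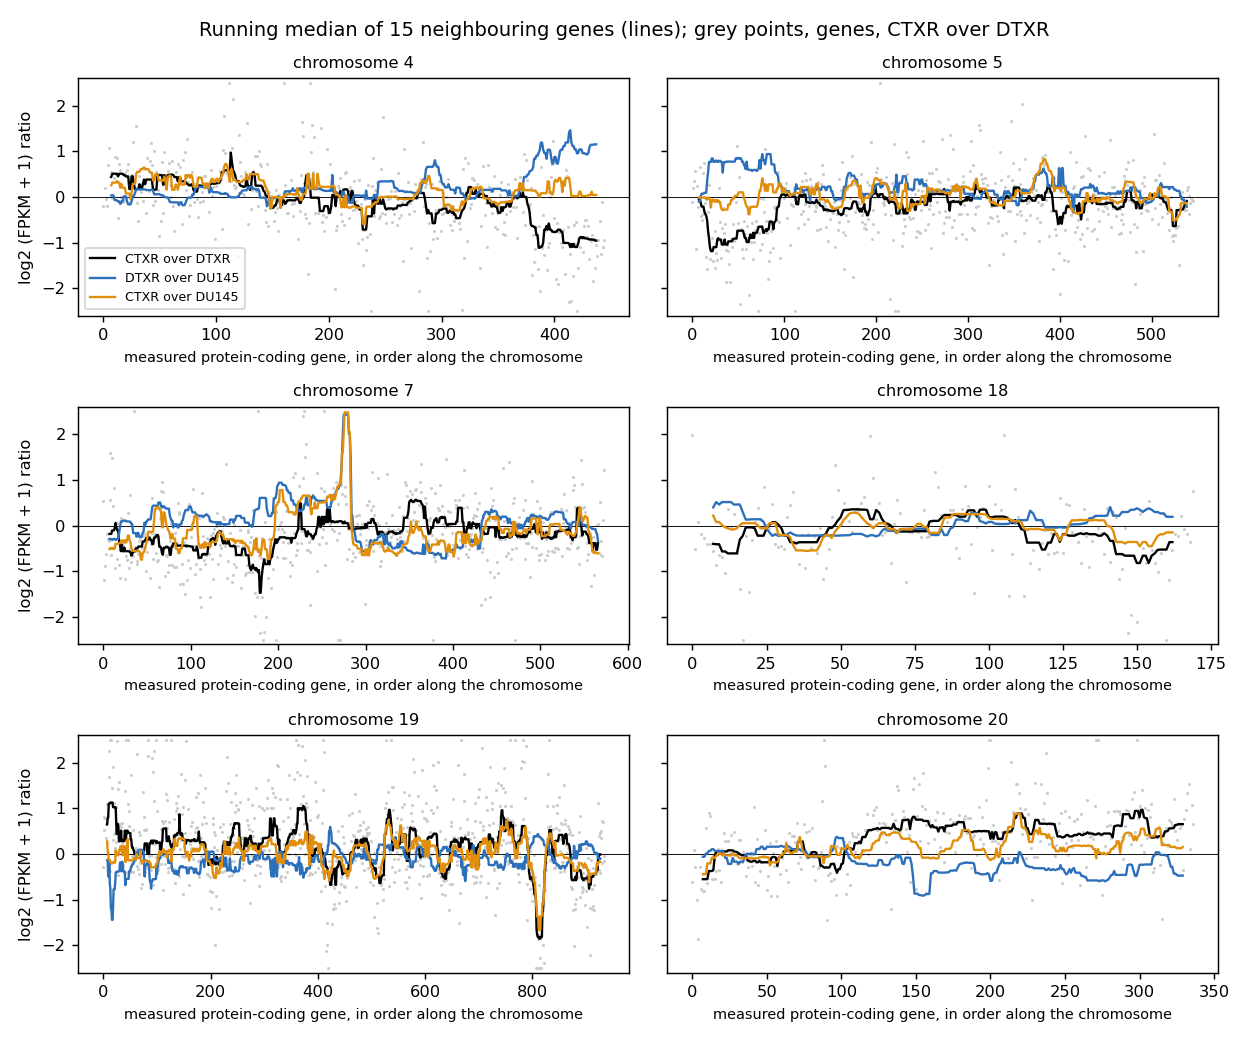
Measured protein-coding genes of 6 chromosomes are drawn in their order along the chromosome, with the running median of 15 neighbours for the log2 (FPKM + 1) ratios of CTXR over DTXR, DTXR over DU145 and CTXR over DU145. Grey points are genes, CTXR over DTXR, drawn at 2.5 where they exceed it in size. The black and blue lines mirror each other at the long-arm end of chromosome 4 and on the short arm of chromosome 5. The orange line stays near 0 in these stretches. On chromosome 19 the black and orange lines dip together at the zinc finger cluster. On chromosome 7 the peak around ABCB1 is present in both sublines over DU145 and absent between them.

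The ratio also varied with the composition and length of the transcript. Across deciles of transcript GC content, the median log2 ratio went from −0.15 in the lowest to 0.27 in the highest, and the share of genes called higher from 3.22% to 15.7%. Across deciles of length it went from 0.23 in the shortest to −0.24 in the longest. Higher protein-coding genes had a median GC content of 56.7% and a length of 2760 bases, lower ones 45.4% and 4358 bases, and all measured ones 48.4% and 3658 bases. After the median of each decile was subtracted, 791 protein-coding genes were higher and 600 lower, against 893 and 640 before. List medians were also recomputed after this subtraction, and 22 of 53 changed sign under it or under a scaling. The part of GC content and length in the shares of list members called was not tested. CabR over TaxR showed medians no farther from 0 than 0.02 in size in any decile of GC content.

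**Figure D5:**
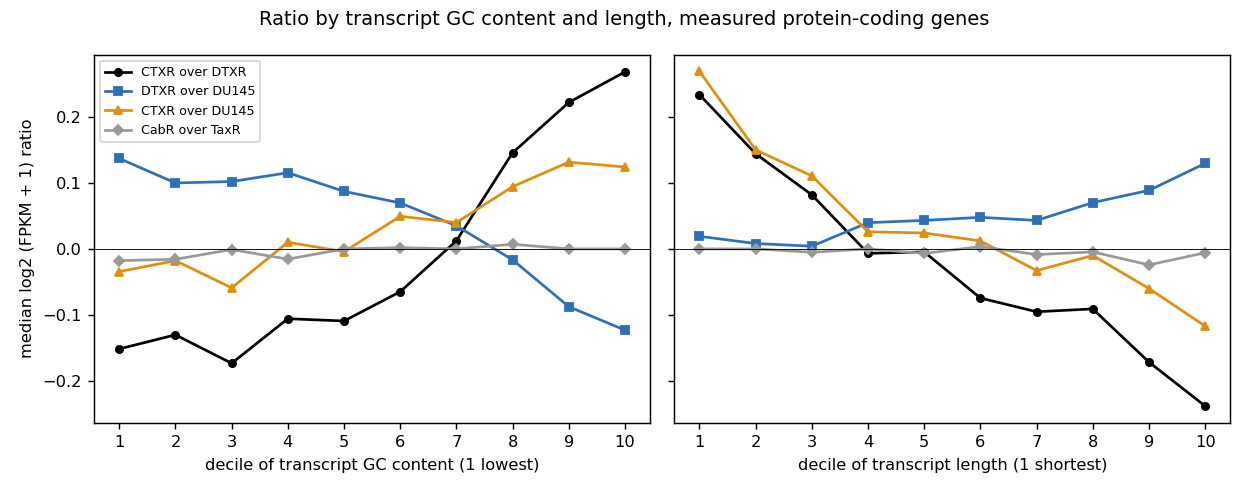
The median log2 (FPKM + 1) ratio of measured protein-coding genes is shown by decile of transcript GC content (left) and transcript length (right) for 4 comparisons, each of 1 library with 1 library. CTXR over DTXR climbs from −0.15 to 0.27 with GC content and drops from 0.23 to −0.24 with length, while CabR over TaxR stays close to 0.

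The same step in the C4-2B lineage involved fewer genes. CabR against TaxR had 305 higher (2.17% of 14042 measured) and 321 lower genes (2.29%). Among 12504 genes measured in both lineages, 1.39% were higher and 1.40% lower in CabR, against 5.90% and 4.90% in CTXR. Of the 738 genes that were higher in CTXR, 29 (3.93%) were higher in CabR and 27 (3.66%) lower. Of the 613 that were lower in CTXR, 31 (5.06%) were lower in CabR and 24 (3.92%) higher. All 4 shares lie above the 1.39% and 1.40% of the background, and the shares in the same and in the opposite direction lie close together. The 29 shared higher genes are 16.7% of CabR's 174, and the 31 shared lower genes 17.7% of its 175. Protein-coding were 11 of these 29 and 15 of these 31. In the opposite direction 14 of the 27 and 11 of the 24 were. Pseudogenes and noncoding RNAs listed at 0 in a library, such as BANF1P2 and SNORD17, are among the others. The comparisons share no library.

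Protein-coding genes higher in both included PREX1, a Rac exchange factor. It was at 2.58, 0.509 and 6.03 FPKM in the DU145 lineage (2.22) and at 0.664 in TaxR and 3.13 in CabR (1.31). PLD1, phospholipase D1, was at 10.0, 3.83 and 12.8 (1.51) and at 1.24 and 5.12 (1.45), and ETNK2, an ethanolamine kinase, at 2.997, 1.79 and 6.64 (1.46) and at 0.780 and 5.13 (1.78). Genes lower in both included SNAI2, at 6.98 FPKM in TaxR and 1.08 in CabR (−1.94), and PTGER4, a receptor for prostaglandin E2, at 0.430, 20.2 and 2.39 (−2.64) and at 8.57 and 3.24 (−1.17). SLC1A3, a glutamate carrier, was at 4.69, 6.62 and 0.723 (−2.15) and at 4.55 and 1.51 (−1.14). The TaxR library held low levels of transcripts typical of DU145, S100A6 at 8.06 FPKM and UCHL1 at 7.19, that were lower in CabR (0.353 and 1.71). KRT7 and BASP1 were lower in CabR too, from 1.62 to 0.160 and from 2.33 to 0.153, and the part of these transcripts in the shared lower genes was not tested. RDH10, NAPSA, FHIT and SPP1, the extremes of the DU145 lineage, were each under 4 FPKM in both TaxR and CabR and were not called there.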

How the data were processed

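Stranded mRNA libraries of 6 prostate cancer cell lines were sequenced, 1 per line. Per the submitters' processing notes HISAT, StringTie, Cuffnorm and the build GRCh38 were used, without versions. Which annotation was used, whether strand was, and whether libraries were scaled jointly is not stated in those notes. The authors deposited FPKM per Ensembl identifier, 1 table per library, per the file headers. Depth is unknown, so no interval or detection limit is given. FPKM were used as deposited, as log2(FPKM + 1), with a filter at 1 FPKM in DTXR or CTXR and a size rule of log2 1 and no test. Of 60658 identifiers 56550 matched a symbol table and 57047 GENCODE 29, which gave biotypes, positions, transcript GC content and length. Promoters came from a RefSeq table of GRCh38.p14.

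Named genes were ABCB1, the 15 highest and 15 lowest coding genes, up to 6 per pattern, direction and list, up to 3 per run and up to 10 per direction shared between lineages. Other list members were named after their values were seen. The members and the 53 lists, 4 of whose genes found no identifier, were chosen with earlier results of these data known. The classification was tested on simulated data with large planted changes, and recovery was required only at high FPKM. The new genes and reversions had lower median levels and smaller median differences, a range which that check did not cover. Alternatives were other pseudocounts, filters, scalings and size rules, and, added after seeing the data, subtraction of GC and length medians. Python 3.11.15, numpy 2.4.6, pandas 2.3.3 and matplotlib 3.10.9 were used.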

Additional observations from a re-analysis of the deposited data

Results flagged for a closer look

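In 7 genes the cabazitaxel step took opposite directions in the lineages, with a log2 ratio of at least 1.5 in size in each. Each side rests on 1 pair of libraries, and the difference was not tested. LGALS1, galectin-1, had a ratio of 2.02 in CTXR over DTXR and −2.07 in CabR over TaxR. It was at 233.4 FPKM in DU145, 12.8 in TaxR and 2.28 in CabR. The DU145-typical transcripts S100A6 and UCHL1 were also lower in CabR (0.353 and 1.71 FPKM) than in TaxR (8.06 and 7.19), and their part in the ratio of LGALS1 was not tested. ATP2B4, a plasma membrane calcium pump, had 1.86 and −1.72, and NPW, a neuropeptide precursor, 1.54 and −1.90. The other 4 were lower in CTXR and higher in CabR. GRB10, the adaptor of insulin and IGF signalling, had −3.23 and 1.85, and IGFBP3, the IGF carrier, −1.97 and 1.87. RAI14, an actin-associated protein, had −2.33 and 2.09, and STXBP5, a regulator of vesicle fusion, −1.66 and 3.47.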

How the results depend on the processing

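With a pseudocount of 0.1 there were 1924 higher and 1382 lower genes, 515 higher reversions and 481 new lower genes. With a pseudocount of 5 there were 388 and 291, with 62 higher and 107 lower reversions and 172 and 65 new genes. A filter at 5 FPKM left 739 and 582, 159 and 180 reversions and 286 and 168 new genes. A size rule of log2 1.5 left 461 and 321, 90 and 127 reversions and 200 and 81 new genes. In protein-coding genes alone there were 200 lower reversions and 340 new higher genes. With GC and length medians subtracted, protein-coding genes gave 791 and 600, with 167 and 182 reversions and 303 new higher genes. The larger pseudocount, the stricter filter, the higher size rule and the restriction to coding genes pass or count fewer genes by construction. For the subtraction the cause was not tested. Scaling to the total without mitochondrial genes gave 1069 and 1102, so that 49.2% of the calls were higher in place of 58.1%, and moved the median of all genes to −0.10. The medians of 22 of 53 lists changed sign under a scaling or the subtraction. Of 253 named genes none changed sign, but another pseudocount, filter or size rule cannot change a sign. All but ABCB1 had been chosen past the size rule, so the absence of sign changes says little about them. The filter at 5 FPKM kept 214 of the named genes. Calls were lost in 91 at a pseudocount of 5, in 106 at log2 1.5, in 17 under that scaling, in 30 after subtraction and in 2 each under the upper quartile and median-ratio scalings. No paired analysis was possible because each line has 1 library. Depth is unknown, so what it limits cannot be given.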
